A study of Mus musculus with 18 samples.

Results

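CD24neg and CD24low lung epithelial cells of mice given a G9a inhibitor were compared by the positions of their listed open chromatin regions. The comparison used 4 of the 10 deposited peak lists: CD24neg replicates 2 and 3 against CD24low replicates 2 and 3, all from mice treated with the inhibitor (labelled G9ai). Peaks of the 4 lists that overlapped by at least 1 bp were merged into 11136 regions. A region with a peak in both CD24neg lists and in neither CD24low list was called CD24neg-only, one with a peak in both CD24low lists and in neither CD24neg list was called CD24low-only, and one with a peak in all 4 was called shared. This gave 3666 CD24neg-only regions (32.9% of the merged regions), 6761 CD24low-only regions (60.7%) and 431 shared regions (3.87%). The remaining 278 regions had another pattern, of which 34 and 33 came from CD24neg replicate 2 or 3 alone, 128 and 79 from CD24low replicate 2 or 3 alone, and the last few from mixtures. The lists hold regions that had been selected against the vehicle arm, as their overlaps show, so a region missing from a list was not thereby closed in those cells.

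The assay was ATAC-seq, in which a transposase cuts accessible DNA, here with peaks from the short, nucleosome-free fragments. Both populations came from adult c57/bl6 mice aged 6 to 12 weeks, and both were sorted from lung as CD31/45- Epcam+ Sca-1+ cells, so that they share every sort marker except CD24. CD24neg cells carried no surface CD24 and CD24low cells a low level, by their labels. The series made libraries of 10000 cells from 3 such populations, with 3 mice in the inhibitor arm and 3 in the vehicle arm. The labels name no genotype, dose, route or length of treatment, and do not say which replicate number is which mouse. Bulk ATAC-seq cannot tell a region open in more cells apart from one open more often per cell.

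G9a, encoded by Ehmt2, is a histone methyltransferase that places mono- and dimethyl marks on lysine 9 of histone H3, a mark of repressed chromatin. It works as a heterodimer with GLP and is recruited by zinc finger proteins such as WIZ. CD24 is a small glycosylated surface protein that is used, with EpCAM and Sca-1, to separate epithelial populations of the mouse lung. The airway epithelium holds secretory club cells, which make secretoglobins, multiciliated cells, which clear mucus, and basal cells, while alveoli hold flat type 1 cells and surfactant-producing type 2 cells.

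The promoters below are examples from each of the 3 sets, shown because they belong to genes described further on; most regions of every set lay outside promoters. Each sequence is the stretch of a listed region that lies within the 250 bases before an annotated start site, 5′ to 3′ on the gene's strand, from RefSeq (GRCm38.p6, the same build as mm10). Capitals mark matches, on either strand, to any of 17 short motifs, which are given after the sequences.

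The first 4 stretches had a region only in CD24neg cells. Usp8, an endosomal deubiquitinase, and Pik3ca, the catalytic p110-alpha subunit of PI 3-kinase, were among the highest-ranked regions of that set, Sntn encodes a protein of the ciliary tip, and Cav2 encodes a caveolin that is abundant in alveolar type 1 cells. The stretches lie at chr2:126707112-126707327 (plus strand), chr3:32396815-32397064 (plus), chr14:13670626-13670875 (plus) and chr6:17280957-17281184 (plus).
Usp8: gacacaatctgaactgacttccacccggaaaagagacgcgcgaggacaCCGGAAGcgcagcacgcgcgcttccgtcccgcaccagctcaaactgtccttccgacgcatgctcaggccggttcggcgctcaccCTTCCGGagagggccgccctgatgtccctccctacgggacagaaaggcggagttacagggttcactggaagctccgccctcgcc
Pik3ca: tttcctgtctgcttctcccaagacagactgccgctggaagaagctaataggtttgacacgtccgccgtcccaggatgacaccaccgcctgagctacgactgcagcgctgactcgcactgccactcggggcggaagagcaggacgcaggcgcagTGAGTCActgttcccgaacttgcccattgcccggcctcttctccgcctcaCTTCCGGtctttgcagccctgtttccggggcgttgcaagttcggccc
Sntn: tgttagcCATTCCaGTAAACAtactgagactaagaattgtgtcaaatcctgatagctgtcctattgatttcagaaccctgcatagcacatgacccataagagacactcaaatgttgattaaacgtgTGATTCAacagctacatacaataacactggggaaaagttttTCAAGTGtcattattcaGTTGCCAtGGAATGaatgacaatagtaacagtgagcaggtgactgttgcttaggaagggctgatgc
Cav2: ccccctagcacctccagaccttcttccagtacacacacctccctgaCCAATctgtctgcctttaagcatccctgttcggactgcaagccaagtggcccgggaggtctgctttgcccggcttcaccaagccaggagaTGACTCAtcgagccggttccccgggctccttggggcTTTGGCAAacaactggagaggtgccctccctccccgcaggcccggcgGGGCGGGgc

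The next 3 stretches had a region only in CD24low cells. Hey2 encodes a basic helix-loop-helix repressor downstream of Notch, Scgb3a1 a secretoglobin of airway secretory cells, and Lgr6 an R-spondin receptor. They lie at chr10:30842784-30843033 (minus strand), chr11:49663345-49663576 (plus) and chr1:135105277-135105526 (minus).
Hey2: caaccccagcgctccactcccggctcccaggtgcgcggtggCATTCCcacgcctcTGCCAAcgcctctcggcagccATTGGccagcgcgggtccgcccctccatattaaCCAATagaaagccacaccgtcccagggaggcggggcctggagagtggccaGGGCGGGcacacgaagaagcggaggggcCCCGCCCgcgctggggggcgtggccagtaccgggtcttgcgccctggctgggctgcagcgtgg
Scgb3a1: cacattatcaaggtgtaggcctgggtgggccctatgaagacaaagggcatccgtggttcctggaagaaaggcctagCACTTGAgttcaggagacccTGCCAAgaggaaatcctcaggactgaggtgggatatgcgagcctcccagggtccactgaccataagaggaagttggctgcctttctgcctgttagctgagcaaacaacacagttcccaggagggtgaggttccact
Lgr6: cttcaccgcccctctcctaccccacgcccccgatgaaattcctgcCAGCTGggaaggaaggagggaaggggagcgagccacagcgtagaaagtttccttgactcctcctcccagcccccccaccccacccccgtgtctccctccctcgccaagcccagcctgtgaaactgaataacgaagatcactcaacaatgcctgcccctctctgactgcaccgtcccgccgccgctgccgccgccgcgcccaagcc

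The last 2 stretches had a region in both populations. Dph5 encodes an enzyme of diphthamide synthesis, and Dydc1 a protein with a DPY30 domain. They lie at chr3:115887933-115888182 (plus strand) and chr14:41072661-41072910 (plus).
Dph5: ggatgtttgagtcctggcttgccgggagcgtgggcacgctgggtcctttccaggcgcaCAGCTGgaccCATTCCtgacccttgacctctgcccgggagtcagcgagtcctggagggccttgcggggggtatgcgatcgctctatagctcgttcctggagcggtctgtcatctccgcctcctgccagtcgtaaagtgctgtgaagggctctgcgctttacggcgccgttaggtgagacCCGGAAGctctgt
Dydc1: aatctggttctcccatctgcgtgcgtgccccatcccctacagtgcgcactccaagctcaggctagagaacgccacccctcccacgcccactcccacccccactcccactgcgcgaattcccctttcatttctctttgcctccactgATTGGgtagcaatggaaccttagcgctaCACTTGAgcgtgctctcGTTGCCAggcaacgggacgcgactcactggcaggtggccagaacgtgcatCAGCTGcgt

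The Usp8 stretch held 2 matches to the ETS letters CCGGAAG. The Pik3ca stretch held 1 ETS match and 1 match to the AP-1 letters TGANTCA. The Sntn stretch held 1 match to the half-site of the RFX factors, which act on cilium genes (GTTGCCA), 1 forkhead match (TGTTTAC), 1 AP-1 match, 1 NKX2 match (CACTTGA) and 2 TEAD matches (GGAATG). The Cav2 stretch held 1 match each to the AP-1, NFI half-site (TTGGCA), C/EBP (TTGCNNAA), SP/KLF (GGGCGGG) and CCAAT letters, of which the NFI and C/EBP matches overlap. The Hey2 stretch held 2 SP/KLF matches, 2 CCAAT matches, 1 TEAD match and 1 NFI half-site. The Scgb3a1 stretch held 1 NFI half-site and 1 NKX2 match, and the Lgr6 stretch held only 1 E-box (CAGCTG). The Dph5 stretch held 1 ETS, 1 TEAD and 1 E-box match, and the Dydc1 stretch 1 RFX half-site, 1 NKX2, 1 E-box and 1 CCAAT match. A match describes the letters and is no evidence that a factor bound there. The remaining motifs searched were RUNX (TGTGGTT), SOX (ACAATGG), CRE (TGACGTCA), NRF1 (GCGCATGCG), GRHL (AACCNGTT) and the TATA box, read as the letters TATAAA, and each motif was read on both strands.

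CD24neg lists were shorter than CD24low lists. The CD24neg lists held 4173 and 4149 peaks in replicates 2 and 3, against 7379 and 7361 peaks in the CD24low lists. The 2 populations did not overlap in list length, and the ratio of the means was 0.565. The CD24neg mean was 4161 ± 17.0 peaks and the CD24low mean 7370 ± 12.7 peaks (SD, n = 2 each). The CD24neg peaks covered 0.689 and 0.769 Mb, against 1.504 and 1.173 Mb for the CD24low peaks. The median peak was 145 and 160 bp wide in CD24neg lists, against 183 and 140 bp in CD24low lists, so that widths overlapped while lengths of lists did not.

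With 2 libraries against 2, an exact two-sided permutation test cannot go below p = 0.333, and that was its value for list length and for covered length (0.467 after Benjamini-Hochberg adjustment over 7 such tests). The median width gave p = 1 in the same exact permutation test. Depth is unknown because the lists come without counts. The highest peak number in a list was 84567 and 79282 in CD24neg lists and 82616 and 69905 in CD24low lists, so the listed peaks came to 4.93% and 5.23% of that number in CD24neg cells and to 8.93% and 10.5% in CD24low cells.

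**Figure D1:**
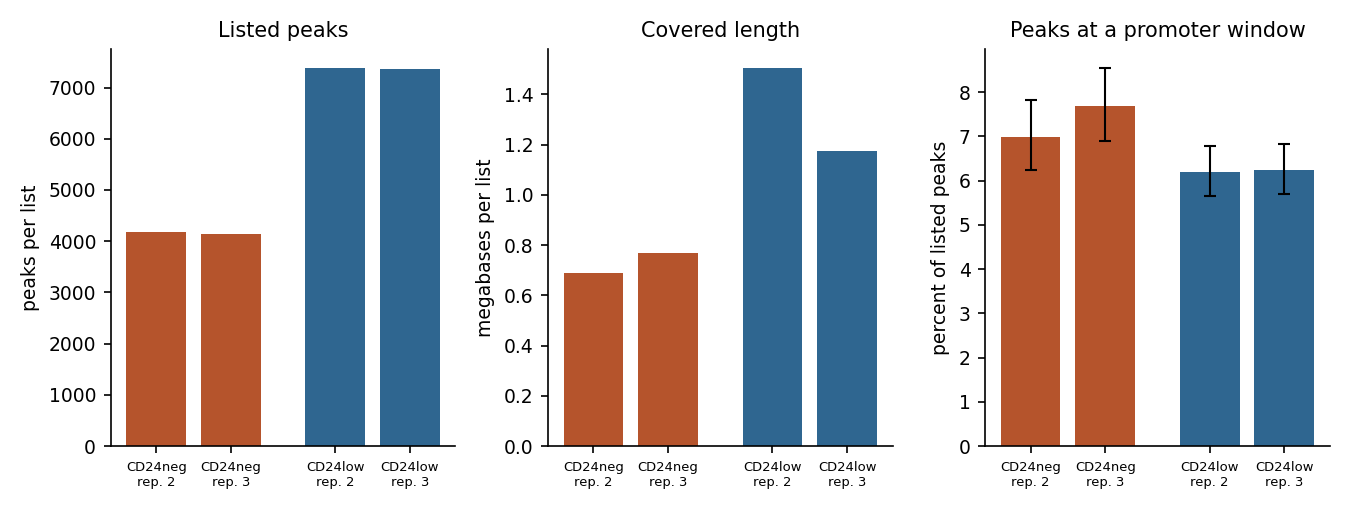
Listed peaks (left), megabases covered (middle) and percent of listed peaks at a promoter window (right) in each of the 4 libraries, with 95% Wilson intervals for the percentages. The CD24neg lists (4173 and 4149 peaks) are shorter than the CD24low lists (7379 and 7361 peaks), and a slightly larger share of their peaks lies at promoters.

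Replicate lists of one population held nearly the same places, and lists of different populations mostly different ones. Of the peaks in the CD24neg replicate 2 list, 99.1% overlapped a peak of the CD24neg replicate 3 list, while 10.3% overlapped a peak of the CD24low replicate 2 list. The Jaccard index, the bases that 2 lists share over the bases that either covers, averaged 0.587 within populations (n = 2 pairs) and 0.0281 between them (n = 4 pairs; exact permutation p = 0.333, the smallest possible). Replicate lists that coincide this closely in position do not show how much replicates vary, and every p here measures only the spread between such lists.

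The ranking of those places was much less alike. A peak's score, as the authors deposited it, was turned into its percentile within its own list. Across the 3666 CD24neg-only regions, the percentiles of replicates 2 and 3 had a Spearman correlation of 0.277, and across the 6761 CD24low-only regions one of 0.276, both given as descriptions over regions that are not independent. Across the 431 shared regions the correlation between a CD24neg and a CD24low list ranged between 0.0302 and 0.0874, against 0.183 within CD24neg and 0.181 within CD24low. The shared regions had median percentiles of 54.1 and 56.6 in the CD24neg lists, against 44.6 and 46.0 in the CD24low lists. Because the lists differ in length and were selected separately, these percentiles place a region only within its own list.

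**Figure D2:**
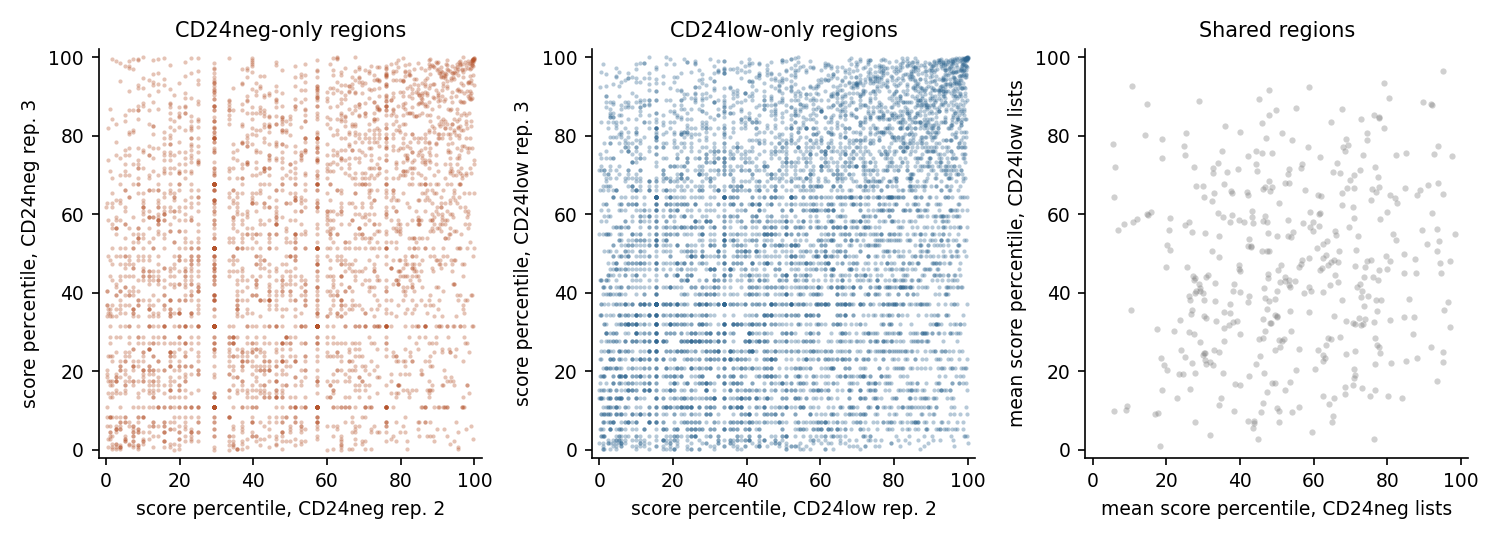
Score percentile of each region in replicate 2 (horizontal) and replicate 3 (vertical) for CD24neg-only regions (left) and CD24low-only regions (middle), and the mean percentile in the CD24neg lists (horizontal) and CD24low lists (vertical) for shared regions (right). Points gather in the upper right corner of the first 2 panels, where both replicates rank a region highest, and spread widely elsewhere (Spearman correlation 0.277 and 0.276).

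Which set was the smaller one depended on how the lists were reduced. With the higher-scoring 50% of each list, CD24neg-only regions numbered 1126 and CD24low-only regions 2108. That setting keeps the ratio of list lengths, so it cannot show whether the order rests on list length. When every list was reduced instead to its 4149 highest-scoring peaks, CD24neg-only regions numbered 3767 and CD24low-only regions 2521. That reduction took at most 24 peaks from a CD24neg list and 3230 and 3212 from the CD24low lists of replicates 2 and 3. Since CD24low replicates rank their regions differently and a region must be in both, 3051 regions then had another pattern, against 278 with the full lists, so the reversed order follows in part from how this reduction is built.

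Both sets lay mostly inside genes and far from start sites. Of CD24neg-only regions 61.4% overlapped a protein-coding gene, against 59.4% of CD24low-only regions and 66.8% of shared regions. The median distance to the nearest start site was 23793 bp for CD24neg-only, 27543.5 bp for CD24low-only and 19222.5 bp for shared regions. The share farther than 50 kb from a start site was 32.9% (95% Wilson interval 31.4 to 34.5) for CD24neg-only regions and 35.4% (34.3 to 36.6) for CD24low-only regions.

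Promoters held a small share of each set, and it was largest among shared regions. A promoter window here ran from 250 bases before to 50 after a start site. It was touched by 7.52% of CD24neg-only regions (6.70 to 8.44), 6.36% of CD24low-only regions (5.80 to 6.98) and 11.4% of shared regions (8.69 to 14.8). Per library, 6.98% and 7.68% of CD24neg peaks touched one, against 6.20% and 6.24% of CD24low peaks, so the populations did not overlap. Peaks within 1000 bp of either end of a gene made up 18.02% and 18.20% of the CD24neg lists, against 17.0% and 16.9% of the CD24low lists. That difference was 1.20 percentage points with the full lists and 3.35 with the higher-scoring 50% of each list. With the full lists, the differences in the promoter share and in the gene end share each gave p = 0.333 in the exact permutation test, the smallest value possible. The difference of 3.35 points was not tested. The CD24neg lists were also the shorter ones, and whether these shares depend on list length was not tested. Shared regions join peaks of 4 lists and the other sets' regions peaks of 2, and the shares of regions were not adjusted for width. All intervals cover counting error only.

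**Figure D3:**
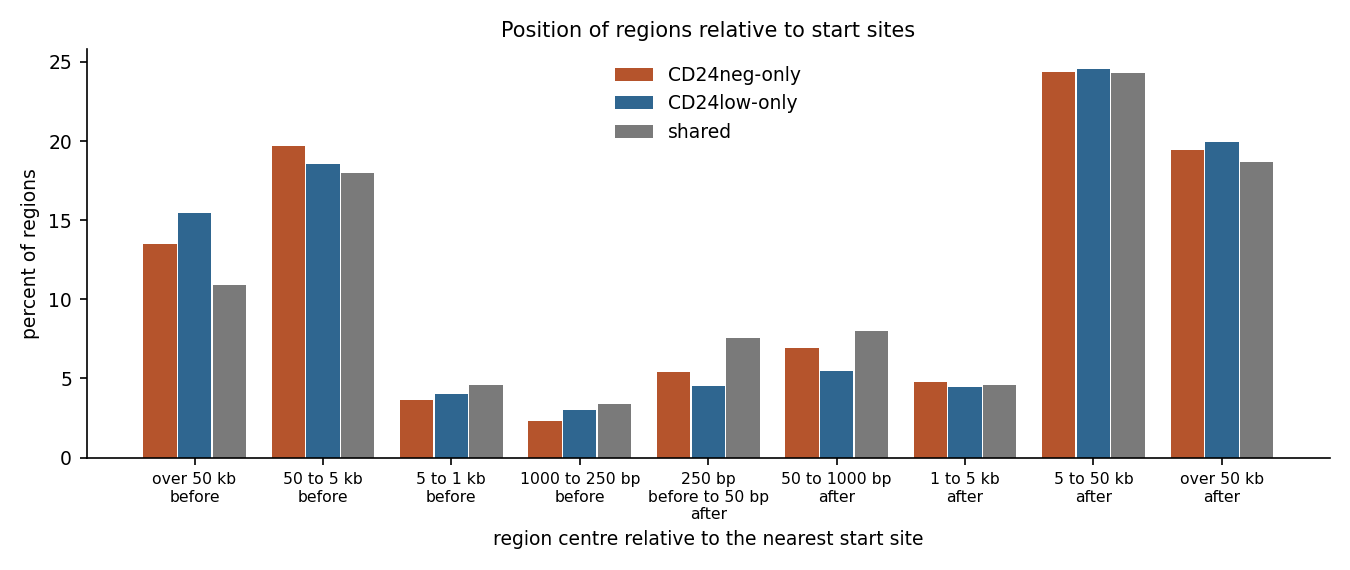
Percent of CD24neg-only, CD24low-only and shared regions by the position of the region's centre relative to the nearest start site, before it (left) to after it (right). Within the promoter window the bars stand at 5.40% for CD24neg-only, 4.51% for CD24low-only and 7.52% for shared regions, and in every set the largest bar is 5 to 50 kb after a start site.

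Distances between the 2 sets were measured in both directions. The median distance of a CD24neg-only region to the nearest CD24low-only region was 55765 bp, and 341 CD24neg-only regions (9.31%) had one within 5 kb. The median distance of a CD24low-only region to the nearest CD24neg-only region was 115672 bp, and 5.32% had one within 5 kb. Of shared regions, 3.02% had a CD24neg-only region and 8.58% a CD24low-only region within 5 kb. These distances depend on how many regions each set holds. The X chromosome held 2.15% of CD24neg-only regions, 2.23% of CD24low-only regions and 3.71% of shared regions, with intervals that overlap. Merged regions were widest in the shared set, with a median of 190.5 bp for CD24neg-only, 211 bp for CD24low-only and 257 bp for shared regions. A shared region joins peaks of 4 lists and the others of 2, so these widths are not like for like. The median peak in shared regions was 160 and 168 bp in the CD24neg lists and 179 and 138 bp in the CD24low lists. It was 145 and 159 bp in CD24neg-only regions and 185 and 141 bp in CD24low-only regions.

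The promoters that held a region were richer in G and C than promoters at large. A promoter sequence was at hand for 17492 of 21887 protein-coding genes, in 21263 windows. Windows with a CD24neg-only region (294) had a median GC content of 61.2%, those with a CD24low-only region (464) 60%, and those with a shared region (56) 59.5%, against 56.3% for all windows. The median number of CpG dinucleotides was 20, 20 and 19 in the same 3 sets and 13 over all windows. The SP/KLF letters, themselves G and C, occurred in 49.3% of CD24neg-only, 46.6% of CD24low-only and 46.4% of shared windows, against 33.9% of all windows. TATA letters occurred in 5.78%, 7.76% and 1.79% of them, the last being 1 of 56 windows, against 12.6% of all windows. ETS letters occurred in 15.0% (11.3 to 19.5), 17.5% (14.3 to 21.2) and 16.1% (8.69 to 27.8), against 11.6%. The intervals of the CD24neg-only and shared windows thus include the share of all windows. None of these motif shares was adjusted for GC content.

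For other motifs the shares in the 2 populations are given without a test of their difference. The NFI half-site occurred in 7.82% of CD24neg-only windows (5.27 to 11.5) and 12.5% of CD24low-only windows (9.80 to 15.8), against 13.1% of all windows. The CCAAT letters occurred in 32.7% of CD24neg-only windows (27.5 to 38.2) and 25.6% of CD24low-only windows (21.9 to 29.8), against 38.2% of all windows. AP-1 letters occurred in 6.80% of CD24neg-only and 4.31% of CD24low-only windows, against 6.99% of all windows. The RFX half-site occurred in 6.46% and 5.60% of the same windows, against 4.18% of all windows.

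Some of the regions also appeared in the other 6 lists of the series. For single named regions, such membership is mentioned in some cases only. At least 1 of those lists held 21.1% of CD24neg-only regions, 24.8% of CD24low-only regions and 26.2% of shared regions. These shares were not adjusted for the width of the regions. The single CD24high vehicle list, the longest of all with 12985 peaks, held 12.5% of CD24neg-only regions (11.5 to 13.7), 13.7% of CD24low-only regions (12.9 to 14.5) and 18.1% of shared regions (14.7 to 22.0). The CD24high inhibitor lists held 3.41% and 3.46% of CD24neg-only regions, against 4.39% and 4.45% of CD24low-only regions.

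Overlap with the vehicle lists differed between the populations. The CD24neg vehicle list held 2.02% of CD24neg-only regions (1.61 to 2.53) and 9.17% of CD24low-only regions (8.51 to 9.88). The 2 CD24low vehicle lists held 4.39% and 4.34% of CD24neg-only regions, and 0.192% and 0.237% of CD24low-only regions. Each set was thus rare in its own population's vehicle lists and less rare in the other's. Since the lists were selected between the arms, the scarcity in a population's own vehicle lists is no finding. Of the peaks in the CD24neg vehicle list, 6.98% overlapped a CD24low-only region. That share was 7.13% in the CD24high vehicle list and 10.6% and 10.7% in the CD24high inhibitor lists, so the CD24neg vehicle list did not stand out. Of the peaks in the CD24low vehicle lists, 6.25% and 6.23% overlapped a CD24neg-only region. In the CD24high vehicle list 3.54% did, and in the CD24high inhibitor lists 4.50% and 4.51%, so here the CD24low vehicle lists had the larger shares. The 6 lists differ in the share of their peaks at a promoter window. It was lowest in the CD24high vehicle list (4.74%) and highest in the CD24low vehicle list of replicate 2 (11.7%). None of these differences was tested.

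**Figure D4:**
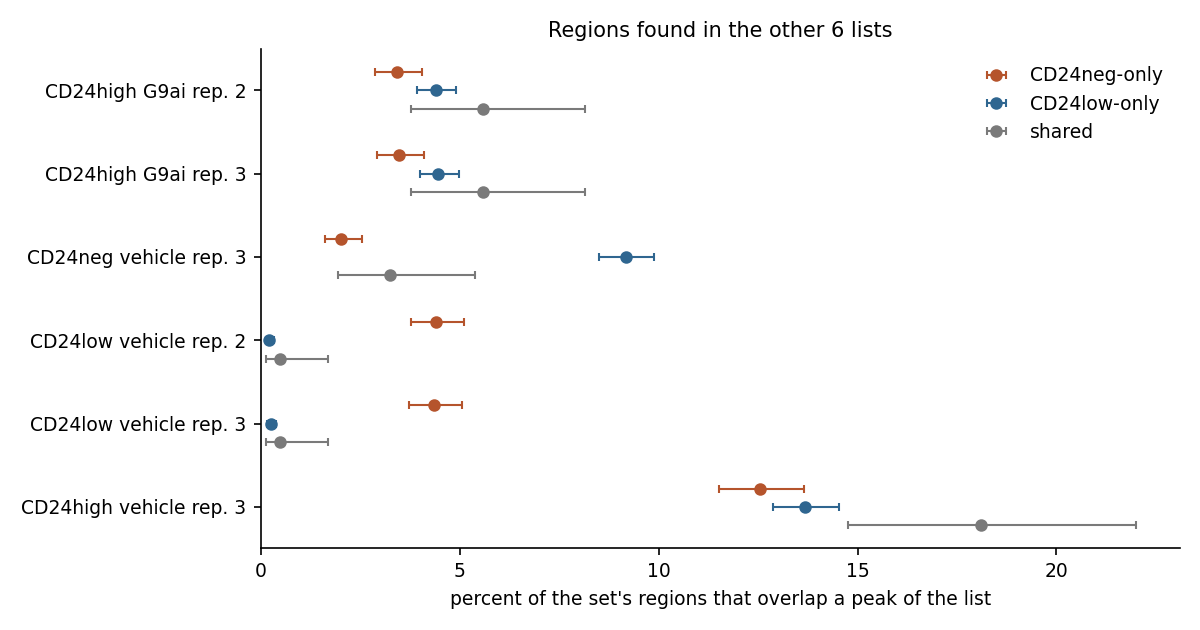
Percent of CD24neg-only, CD24low-only and shared regions that overlap a peak of each of the 6 lists not used to define them, with 95% Wilson intervals. CD24low-only regions reach 9.17% in the CD24neg vehicle list and CD24neg-only regions 4.39% and 4.34% in the CD24low vehicle lists, while each set is at 2.02% or less in its own population's vehicle lists.

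Most of the highest-ranked CD24neg-only regions lay at or inside a gene. Khdrbs1, which encodes the RNA-binding protein Sam68, led the set with authors' scores of 574 and 691 in replicates 2 and 3. Its region lies inside the gene at chr4:129742511-129742978. Dennd2c, an exchange factor for Rab GTPases, followed with scores of 359 and 546 at an end of the gene, and Sema3b, a secreted semaphorin, with 340 and 407 inside it. Usp8 had scores of 304 and 394, and Micos10, a subunit of the complex that shapes mitochondrial cristae, 345 and 367, both across a start. Between Sema3b and Usp8 in rank, a region at chr13:72593383-72594166 with scores of 292 and 415 had no protein-coding gene within 1000 bp. Enoph1, an enzyme of methionine salvage, had a region 9134 bp inside the gene with scores of 334 and 387. The set's 12 leading genes also held Zfp385a, R3hcc1l, Pik3ca, Htra1, a secreted serine protease, Numa1, a protein of the spindle pole, and Hes7, a transcriptional repressor of the Hes family. Hes7 had the lowest percentiles of the 12, with 99.2 and 98.4. None of these 12 regions was in another list of the series.

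The highest-ranked CD24low-only region, at chr19:61266612-61266699, had no protein-coding gene within 1000 bp and scores of 655 and 557 in CD24low replicates 2 and 3. Nor had the third in rank, at chr13:9834310-9834367, with 497 and 552. Among regions at genes, Pdcl3, a chaperone of the phosducin family, had scores of 518 and 555, in a region across an end of the gene at chr1:38987180-38988111. Hey2 had scores of 665 and 408, in a region across its start that covered the stretch printed above. A region across the starts of 2 neighbouring genes, Pqbp1, a splicing factor, and Timm17b, a subunit of the mitochondrial import channel, had scores of 568 and 417, and it was also in both CD24high inhibitor lists. Fuca2, a secreted fucosidase, had 447 and 433, and Usp53, a protein of tight junctions, 373 and 311. The others were Rbx1, the RING subunit of cullin ubiquitin ligases, Hnrnpf, Msra, Fto, an RNA demethylase, C6, a terminal complement component, and Psmd3, a proteasome subunit. The Hnrnpf region was also in the CD24high vehicle list. The lowest percentile among the 12 was 99.3, for Psmd3 in replicate 3.

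The shared region with the highest mean percentile, at chr6:143425233-143425741, had no protein-coding gene within 1000 bp. It ranked high in all 4 lists, with percentiles of 94.6 and 95.6 in the CD24neg lists and 97.8 and 95.2 in the CD24low lists. Among shared regions at genes, that of Mrpl38, a mitochondrial ribosomal protein, came first, with percentiles of 84.6 and 99.7 in the CD24neg lists and 99.7 and 76.1 in the CD24low lists, and its region was also in both CD24high inhibitor lists. Fbxw17, an F-box protein, had 98.1 and 81.5 in CD24neg lists and 88.4 and 88.6 in CD24low lists. The Dph5 region had 99.5 and 95.6 in CD24neg lists and 58.0 and 91.7 in CD24low lists. Dph5 thus ranked high in 3 lists and near the middle of the fourth. Cluap1, a subunit of the intraflagellar transport machinery, had 75.9 and 79.4 in CD24neg lists and 89.7 and 79.7 in CD24low lists. The others were Rhof, Nsmaf, Homer2, Lipc, Kdm2b, which binds CpG islands and demethylates histone H3, Dydc1 with its neighbour Dydc2, and Zmiz1, a coregulator of Notch1.

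Fewer genes held CD24neg-only regions than CD24low-only regions. A gene was assigned every region inside it or within 1000 bp of it. Of 21887 protein-coding genes, 2122 held a CD24neg-only region (9.70%), 3303 a CD24low-only region (15.1%), 783 both kinds (3.58%) and 314 a shared region (1.43%). The CD24neg-only regions lay at 1339 genes without a CD24low-only region, and the CD24low-only regions at 2520 genes without a CD24neg-only region. Genes with both kinds were long, with a median of 110.6 kb against 17.2 kb for all genes. With the higher-scoring 50% of each list, which keeps the ratio of list lengths, 762 genes held a CD24neg-only region and 1259 a CD24low-only region. With 4149 peaks in every list, a reduction that falls almost wholly on the CD24low lists, the genes numbered 2180 and 1472. The gene lists that follow are read against the shares of all genes, 9.70% for CD24neg-only and 15.1% for CD24low-only regions, and longer genes have more room for regions of either kind.

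A few long genes held many regions of one kind. Cux1, a homeodomain transcription factor, held 7 CD24neg-only regions and 1 CD24low-only region, and Ror1, a receptor for Wnt5a, held 7 CD24neg-only regions and no CD24low-only region. Arid1b, a subunit of the BAF chromatin remodeller, held 5 and 1. Rad51b, a recombination protein, held 1 CD24neg-only region and 12 CD24low-only regions, Mecom, a zinc finger transcription factor, 4 and 9, Plcb1 and Sipa1l3 1 and 7 each, and Samd4, a translational repressor, none and 7. These genes span between 198.8 and 689.1 kb. Slc23a2, an ascorbate transporter of 92.8 kb, held 5 CD24neg-only and 4 CD24low-only regions, and Cacna1c and Nav2 also held 5 and 4 each. Among shared regions, Dcdc2a, which encodes a ciliary doublecortin protein, held the most, 3, with no region of either other kind.

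Club cell genes held CD24low-only regions more often than CD24neg-only ones. Of 24 listed genes, 3 held a CD24neg-only region and 13 a CD24low-only region (12.5% and 54.2%, against 9.70% and 15.1% of all genes), and 1 held a shared region. The regions numbered 4 CD24neg-only and 16 CD24low-only, or 4.46 and 17.8 per Mb, against 2.35 and 4.16 per Mb over all genes. Scgb1a1, the main club cell secretoglobin, had a CD24low-only region across an end of the gene, with percentiles of 98.2 and 77.2. That CD24low-only region was also in the CD24high vehicle list. Scgb3a2, another secretoglobin, had one across an end with 89.7 and 76.1, and Scgb3a1 one just outside the gene with 80.6 and 69.3. Kcnk2, a potassium channel, held 3, the best with 96.1 and 90.1. Cyp2f2, a cytochrome of club cells, held 2. On the CD24neg side, Cyp2b10, another cytochrome, had a region across an end of the gene with percentiles of 69.5 and 93.7, while Cldn10 and Aldh1a1 held regions of both kinds. With the higher-scoring 50% of each list 1 club cell gene held a CD24neg-only region and 6 a CD24low-only region. With 4149 peaks in every list 3 and 5 did, and within 1000 bp of gene ends the counts were 1 and 5. Over all 21887 genes the counts under these settings were 762 and 1259, 2180 and 1472, and 720 and 1221.

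Hippo pathway genes held CD24low-only regions more often than CD24neg-only ones when whole genes were counted, and these genes are long, with a median of 77.5 kb against 17.2 kb for all genes. The pathway's kinases restrain the coactivators YAP and TAZ, which act through TEAD factors. Of 28 genes, 3 held a CD24neg-only region and 16 a CD24low-only region (10.7% and 57.1%, against 9.70% and 15.1% of all genes), and 3 held a shared region. There were 4 CD24neg-only and 36 CD24low-only regions, or 1.34 and 12.1 per Mb, against 2.35 and 4.16 per Mb over all genes. Among the kinases, Lats2 held 3 CD24low-only regions, the best with percentiles of 85.7 and 84.7, and Stk3 held 3. Upstream, Wwc1, the KIBRA scaffold, held 4 with 87.7 and 77.2 at best, and the LATS inhibitor Ajuba held 3. The DNA-binding partners Tead1 and Tead4 held 3 each, and Vgll4, which competes with YAP for TEAD, held 3 with 76.5 and 86.3 at best. None of these 7 genes held a CD24neg-only region. Wwtr1, which encodes TAZ, held 2 CD24neg-only regions, with 51.4 and 60.9 at best, and 1 CD24low-only region. The best CD24neg-only region of Wwtr1 was also in the CD24neg vehicle list. Tead3 held 1 CD24neg-only region at its promoter, with 11.5 and 66.3, and no CD24low-only region. The shared regions lay at Nf2, Wwc2 and Fat3. With the higher-scoring 50% of each list 1 Hippo gene held a CD24neg-only region and 8 a CD24low-only region, and with 4149 peaks in every list 2 and 7 did. Within 1000 bp of gene ends the counts were 1 and 4 of 28 genes, a narrower gap than the 1 and 5 of 24 in the club cell list. Counts over all genes under these settings are given with the club cell genes.

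Of 26 Notch genes, 5 held a CD24neg-only region and 10 a CD24low-only region (19.2% and 38.5%, against 9.70% and 15.1% of all genes). Those 5, which held both kinds, a pattern that over all genes went with long genes, were Notch1, Notch2, Maml1, Maml2 and Maml3, which are receptors and Mastermind coactivators. Maml3 held 3 CD24neg-only and 5 CD24low-only regions. Maml2 had its CD24neg-only region at percentiles of 86.5 and 76.9. The receptor gene Notch3, the DNA-binding protein gene Rbpj and the target genes Hey2 and Heyl were among those with CD24low-only regions alone. Heyl had one across an end with 62.0 and 68.4. The ligand genes Jag1, Jag2, Dll1 and Dll4 held no region of either kind. Counted in the higher-scoring 50% of each list, 3 Notch genes held a CD24neg-only region and 5 a CD24low-only region. With 4149 peaks in every list 5 and 6 did, and within 1000 bp of gene ends the counts were 0 and 3. The all-gene counts for these settings stand with the club cell genes.

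Of 34 Wnt genes, 9 held a CD24neg-only region and 10 a CD24low-only region (26.5% and 29.4%, against 9.70% and 15.1% of all genes). The regions numbered 11 CD24neg-only and 18 CD24low-only, so that 37.9% of them were CD24neg-only, close to the 36.1% over all genes. Rnf43, a ligase that removes Wnt receptors, held 2 CD24neg-only regions, the best with 72.7 and 85.8, and 1 CD24low-only region. Axin2, a feedback inhibitor, Lgr5, Fzd7 and Znrf3 held CD24neg-only regions alone. Lgr6 held a CD24neg-only region 2072 bp inside the gene with 92.0 and 58.5, and 2 CD24low-only regions, of which the one at its promoter had 63.5 and 90.9. Ctnnb1, which encodes beta-catenin, held 2 CD24low-only regions and no CD24neg-only region.

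TGF-beta and BMP genes held a CD24neg-only region in 7 of 30 cases and a CD24low-only region in 12 (23.3% and 40%, against 9.70% and 15.1% of all genes). Their median length was 69.8 kb, against 17.2 kb for all genes. The ligand gene Tgfb1 had a CD24low-only region with percentiles of 96.2 and 93.3, and Tgfb3 one with 83.9 and 82.7. The BMP receptor gene Bmpr2 had a CD24neg-only region 511 bp inside the gene with 90.6 and 89.0, and Smad6, an inhibitor of BMP signalling, one with 94.8 and 63.7. Smad3 held 2 CD24neg-only and 3 CD24low-only regions.

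EGF and FGF genes held them in 6 and 12 of 30 cases (20% and 40%), with a median length of 61.4 kb. Fgfr2, the FGF receptor of lung epithelium, and Igf1r held 3 CD24low-only regions each and no CD24neg-only region. The best-ranked Fgfr2 region was also in both CD24high inhibitor lists. Fgfr4 had a CD24neg-only region at its promoter with 40.8 and 91.5, and Spry1, a feedback inhibitor of receptor kinases, one 450 bp inside the gene with 62.6 and 84.3.

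Markers of the other epithelial types were divided. Of 33 multiciliated cell genes, 6 held a CD24neg-only region and 10 a CD24low-only region (18.2% and 30.3%). CD24neg-only regions lay at the promoters of Sntn, with percentiles of 93.7 and 94.7, of the axoneme gene Spag16, with 89.5 and 60.9, and of the axoneme gene Hydin, with 29.3 and 97.2. The Sntn region was also in the CD24neg vehicle list. On the CD24low side, Gmnc, a master regulator of the multiciliated fate, had a region inside the gene with 78.6 and 84.1, and Foxj1, a forkhead factor of motile cilia, one just outside the gene with 53.9 and 32.1 that was also in the CD24neg vehicle list. Mcidas, which acts with Gmnc, held a shared region, with 72.7 and 69.2 in CD24neg lists and 94.9 and 23.0 in CD24low lists.

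Of 23 type 1 cell genes, 5 held a CD24neg-only region and 8 a CD24low-only region (21.7% and 34.8%). Cav2 had its CD24neg-only region across the start, with percentiles of 88.1 and 99.4, and Hopx, a homeodomain protein, had one at a promoter with 75.9 and 77.4 that was also in the CD24neg vehicle list, besides 1 CD24low-only region. Rtkn2 had a CD24low-only region with 91.5 and 73.4, and Lmo7 held 3 CD24neg-only and 4 CD24low-only regions. Of 24 type 2 cell genes, 4 held a CD24neg-only region and 6 a CD24low-only region (16.7% and 25%). Il33, an alarmin, had a CD24neg-only region with 61.7 and 90.7, the surfactant protein gene Sftpd a CD24low-only region just outside the gene with 82.1 and 41.5, and the lipid transporter gene Abca3 one with 85.7 and 46.0. The Abca3 region was also in the CD24high vehicle list. The surfactant protein genes Sftpc and Sftpb held no region of either kind. Of 16 basal cell genes, 3 held a CD24neg-only region and 1 a CD24low-only region (18.8% and 6.25%). Ngfr had a CD24neg-only region at its promoter, with 46.0 and 14.4, and Trp63 and Krt5 held none of either kind.

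Lung transcription factor genes held CD24neg-only regions in 6 and CD24low-only regions in 9 of 30 cases (20% and 30.0%). Irx2, an Iroquois homeodomain factor, had a CD24neg-only region with percentiles of 97.4 and 98.8 that was also in the CD24high vehicle list. Sox2, the factor of airway identity, had one across its start with 8.66 and 99.2, so that the replicates ranked it near opposite ends of their lists. Foxp1 held 4 CD24neg-only regions, the best with 92.0 and 89.3, and 3 CD24low-only regions, the best with 97.9 and 96.6. The best CD24low-only region of Foxp1 was also in the CD24high vehicle list. Nfia held 3 CD24low-only regions and no CD24neg-only region. Nkx2-1, the lineage factor of lung epithelium, held none of either kind. Among 28 genes of epithelium in general, 4 held a CD24neg-only region and 8 a CD24low-only region (14.3% and 28.6%). Krt18, a simple keratin, had a CD24neg-only region 821 bp inside the gene with 91.7 and 88.8, and Ehf, an ETS factor of epithelia, one with 96.1 and 82.6. The Krt18 region was also in both CD24high inhibitor lists. Tjp1, the tight junction scaffold ZO-1, held 3 CD24low-only regions and Cdh1, E-cadherin, held 1 of each of the 3 kinds.

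The 24 claudin and tight junction genes held a CD24neg-only region in 5 cases and a CD24low-only region in 11 (20.8% and 45.8%, against 9.70% and 15.1% of all genes). Those 5 genes held both kinds (3.58% of all genes did). Magi1 held 4 CD24neg-only and 3 CD24low-only regions, and Pard3, a polarity protein, 1 and 2. The counts of genes were 0 and 4 with the higher-scoring 50% of each list. With 4149 peaks in every list they were 5 and 5, and within 1000 bp of gene ends 0 and 2. The all-gene counts for the same settings stand with the club cell genes. Among the 30 matrix and integrin genes, with a median length of 114.2 kb, the counts were 6 and 10 (20% and 33.3%). Itga3, a laminin receptor subunit, had a CD24neg-only region with percentiles of 88.1 and 92.8, and Itga9 a CD24low-only region with 98.2 and 83.4. Both of these regions were also in the CD24high vehicle list.

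Ehmt2, the gene of the inhibitor's target, held no region of any kind. Of 31 genes for H3K9 and DNA methylation factors, 3 held a CD24neg-only region and 2 a CD24low-only region (9.68% and 6.45%, against 9.70% and 15.1% of all genes). The CD24neg-only share was close to that of all genes. With 10000 bp either side of the gene the counts were 4 and 4, against 2979 and 4665 of all 21887 genes. They were 1 and 1 with the higher-scoring 50% of each list and 3 and 1 with 4149 peaks in every list. Within 1000 bp of gene ends they were 2 and 1. The all-gene counts for these last settings stand with the club cell genes. The median length of the 31 genes was 52.3 kb, against 17.2 kb for all genes. Uhrf1, which couples DNA methylation to replication, had a CD24neg-only region across its start with percentiles of 51.4 and 94.8, and Wiz one at its promoter with 21.4 and 53.0. Cbx5, which encodes the heterochromatin protein HP1-alpha, had a CD24low-only region at its promoter with 29.0 and 73.4, and Atf7ip held 1 of each kind. The Cbx5 region was also in the CD24neg vehicle list and in both CD24high inhibitor lists. Dnmt3a, a de novo DNA methyltransferase, held a shared region. Of 22 germline genes, 2 held a CD24neg-only region and 2 a CD24low-only region (9.09% each), and of 22 imprinted genes 4 and 6 (18.2% and 27.3%). Stra8, a regulator of meiotic entry, had a CD24neg-only region with 75.9 and 95.9 that was also in the CD24high vehicle list.

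Cell cycle and interferon genes held no CD24neg-only region. Of 26 cell cycle genes, none held a CD24neg-only region and 5 a CD24low-only region, 7 regions in all, and Rb1, the retinoblastoma protein gene, had the best with percentiles of 96.7 and 70.3. Of 21 interferon response genes, none held a CD24neg-only region and 3 a CD24low-only region, with Ifit3 at 83.9 and 95.01. The Rb1 and Ifit3 regions were also in the CD24high vehicle list. Over all genes the shares were 9.70% and 15.1%. The genes of these lists are short, with median lengths of 14.1 and 13.7 kb against 17.2 kb for all genes. Their windows cover only 0.778 and 0.377 Mb, and all genes held 2.35 CD24neg-only regions per Mb.

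The sort markers were nearly absent from the lists. Epcam, Cd24a, Ly6a (which encodes Sca-1) and Ptprc (CD45) held no region of any kind, and Pecam1 (CD31) held 4 CD24low-only regions, the best with percentiles of 93.9 and 97.1, although CD31+ cells were sorted out. Lists of selected regions give no level for such genes, so the labelled identity of the 2 populations could not be checked from them. Endothelial genes held a CD24neg-only region in 2 of 20 cases and a CD24low-only region in 3 (10.0% and 15.0%, against 9.70% and 15.1% of all genes). Immune genes held them in 1 and 2 of 25 cases (4% and 8%), and mesenchymal genes in 1 and 1 of 22 (4.55% each). For neuroendocrine genes the counts were 2 and 3 of 14 (14.3% and 21.4%), and for mesothelial genes 0 and 1 of 6 (0% and 16.7%). Housekeeping genes held them in 3 and 5 of 30 cases (10.0% and 16.7%). The endothelial gene Vwf held 2 CD24neg-only regions, of which the best, with 93.9 and 88.6, was also in both CD24low vehicle lists, and Tek held 2 CD24low-only regions. The best of the Tek regions was also in the CD24high vehicle list. The part of other cell types in the results was not tested.

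**Figure D5:**
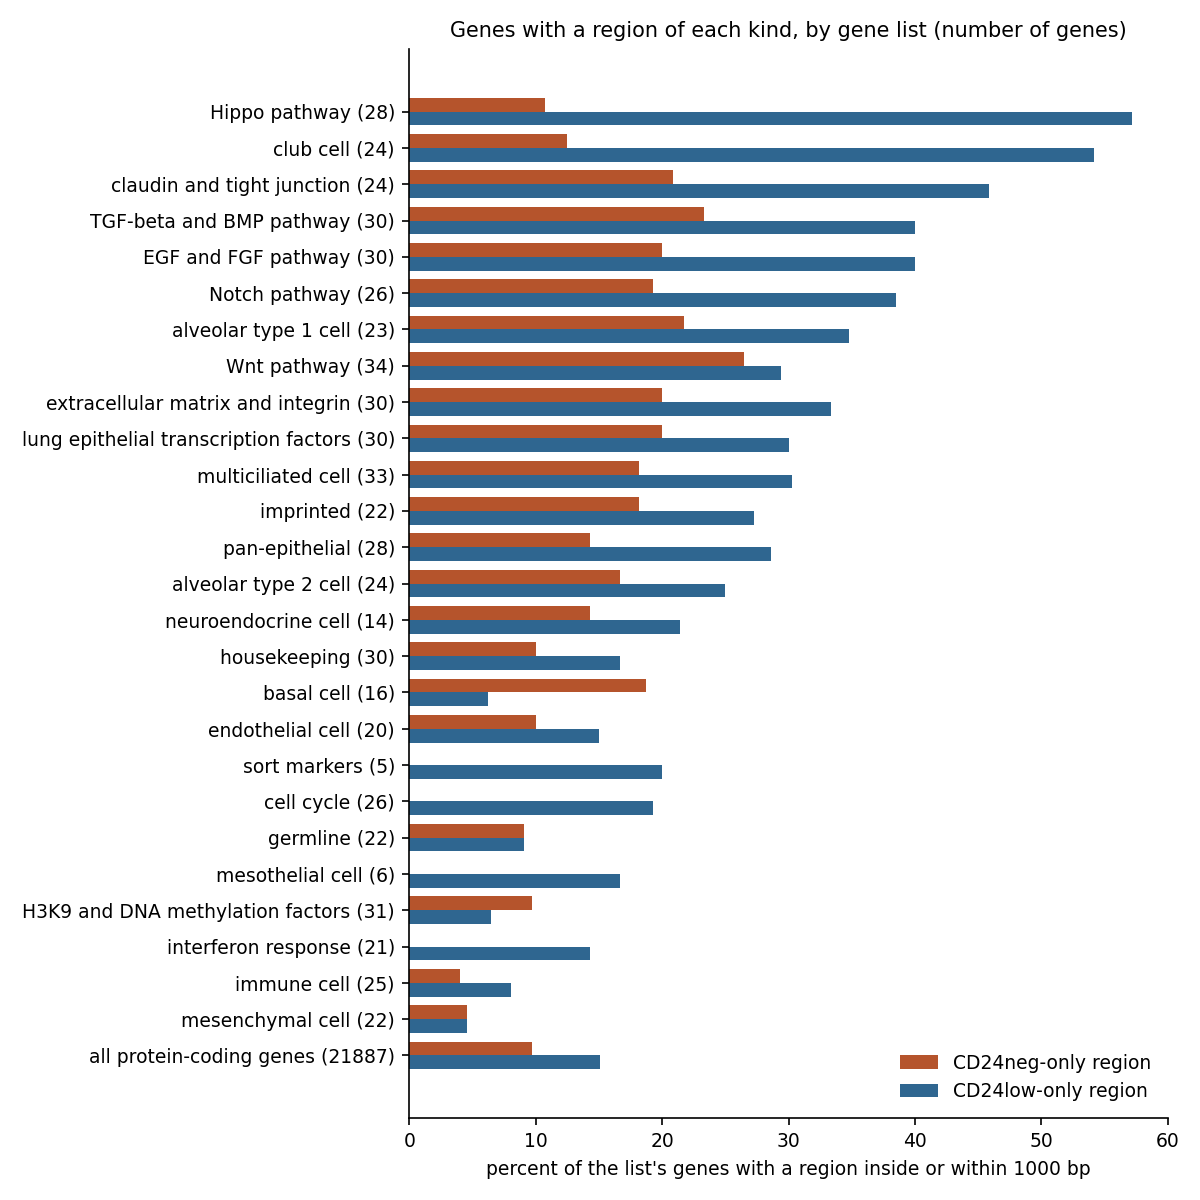
Percent of the genes in each list, and of all protein-coding genes at the bottom, that hold a CD24neg-only region (upper bar) or a CD24low-only region (lower bar), with the number of genes in brackets. The CD24low-only bar is longest for the Hippo (57.1%) and club cell (54.2%) lists, and the CD24neg-only bar is the longer one only for the basal cell list and the H3K9 and DNA methylation factors.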

How the data were processed

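Peak lists of 10 of the 18 samples were at hand, and 4 were compared. The submitters' processing notes name FastQC, Bowtie2 and MACS2 and the build mm10. Their versions and settings, any shift of reads or removal of duplicates, and the selection of lists were not given in the sources used here. Intervals with a score per peak, set by the authors on an unstated scale, make up each deposited list. The score was used only for ranks within a list, as mid-rank percentiles. Peaks were called per library, per the names in the files. No counts come with the lists, so depth is unknown.

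Repeated lines were dropped (between 3.67% and 4.14% of lines in the CD24neg lists, and between 5.74% and 6.01% in the CD24low lists). Peaks overlapping by 1 bp were merged, and regions were set against RefSeq genes and promoters of GRCm38.p6 with Python 3.11.15 and numpy 2.4.6. Library values were compared by exact two-sided permutation tests, and shares have 95% Wilson intervals. Merging and classing were tested on simulated lists. The overlap search behind gene assignment was tested on evenly spaced intervals, without genes. Of 612 listed gene names 604 matched.

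Members and gene lists were chosen with earlier results of these data known, so counts by list are descriptions. Named genes are, per set, the 12 with the highest mean percentile, the 5 with most regions, up to 5 per gene list in that order, the 8 with most of both kinds, the sort markers and Ehmt2. Predicted genes and olfactory receptors were not named. Further list members named beside these, by their region counts or by having no region, were chosen after their values were seen. Of the alternatives, the gene list counts under other windows and lists were added after seeing the data.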

Additional observations from a re-analysis of the deposited data

Results flagged for a closer look

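The difference between the populations ran opposite ways in the 2 arms for list length. The log2 ratio of listed peaks, CD24neg over CD24low, was -0.82 with the inhibitor and 1.80 with vehicle. The CD24neg vehicle group is 1 list, of 8870 peaks, against CD24low vehicle lists of 2558 and 2552 peaks. The difference between the arms was not tested.

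The share of peaks within 1000 bp of a gene end also ran opposite ways, and in both arms the shorter lists had the larger share. The CD24low vehicle lists had 24.3% and 24.6%, and the longer CD24neg vehicle list 15.2%. Outside these populations, the CD24high inhibitor lists of 2798 and 2817 peaks had 22.8% and 22.9%. The CD24high vehicle list of 12985 peaks had 14.6%. A dependence on list length was not tested. CD24neg minus CD24low was 1.20 percentage points with the inhibitor and -9.23 percentage points with vehicle, and this difference was not tested either.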

How the results depend on the processing

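Joining peaks across gaps of up to 100 bp, requiring 50 bp of overlap or accepting a peak in 1 list of a population kept all 3 region counts within 1.5 times. With the higher-scoring 50% of each list, 1126 CD24neg-only, 2108 CD24low-only and 38 shared regions remained, at 762, 1259 and 30 genes, with 124 genes holding both population-specific kinds, and the Jaccard index between populations was 0.0143. With 4149 peaks in every list, which left out peaks almost wholly from the CD24low lists, CD24low-only regions numbered 2521 and shared regions 134, at 1472 and 103 genes, and 371 genes held both kinds. Within 1000 bp of gene ends, 720 genes held a CD24neg-only region, 1221 a CD24low-only region, 110 a shared region and 57 both kinds. With 10000 bp either side of the gene, 1189 held both kinds. The cause of the other moves was not tested.

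Leaving out each of the 4 libraries gave 3669 to 3741 CD24neg-only, 6764 to 6945 CD24low-only and 424 to 430 shared regions. Replicate lists of a population held nearly the same places. Neither leaving out a library nor accepting a peak in 1 list could therefore move these counts far. Log2 ratios were -0.83 to -0.82 for list length and -1.04 to -0.69 for covered length, and the share near gene ends differed by 1.11 to 1.28 percentage points. Keeping repeated lines gave a log2 ratio of list length of -0.85. Over shared regions the deviations of same-numbered libraries had a correlation of 0.0269. That value cannot tell whether the numbers are pairs, since percentiles there agreed weakly even between replicates (Spearman correlation 0.183 and 0.181). The labels do not tie the numbers to mice, and the main comparison did not take them as pairs. With the replicate block the log2 ratios were -0.82 for list length and -0.87 for covered length, and the share near gene ends differed by 1.20 points (exact sign-flip p = 0.5, the smallest possible).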
